A study of Homo sapiens with 6 samples.

Results

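The nuclear genes for subunits of the 5 complexes of oxidative phosphorylation were followed in HN12, an established line of human squamous carcinoma from the head and neck. Members were taken by gene symbol: NDUFAB1, the NDUFA, NDUFB, NDUFC, NDUFS and NDUFV genes, SDHA to SDHD, and the symbols that begin with UQCR, COX4 to COX8 or ATP5. The rule found 85 of the 16330 genes in the count table, with 40 in complex I, 4 in complex II, 9 in complex III, 13 in complex IV and 19 in complex V. It used no expression value. CYC1, a catalytic subunit of complex III, lies outside the rule and is given with the other genes of the pathway. The mitochondrially encoded subunits were not analysed here. COX4I2, COX6A2 and COX7A1 fit the rule by name but were not among the genes that it found. Control cells received the solvent DMSO and treated cells received CPI-613, both for 24 h in otherwise the same medium with serum, and each group has 3 libraries. CPI-613, also called devimistat, resembles lipoate and is aimed at the pyruvate and 2-oxoglutarate dehydrogenase complexes of mitochondria; its dose is not given in the sources used here. All libraries come from a single line. Since nothing in the labels ties the replicates to separate cultures, the p-values cover only the variation among these 6 libraries, part or all of which may be technical.

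Complexes I and II pass electrons from NADH and succinate to ubiquinone, complex III passes them on to cytochrome c, and complex IV uses them to reduce oxygen. Complexes I, III and IV pump protons across the inner mitochondrial membrane, and complex V, the ATP synthase, lets them flow back to make ATP. Complex II is also an enzyme of the tricarboxylic acid cycle, and it is the complex whose subunits are all encoded in the nucleus. A core of subunits in each complex carries out catalysis, and accessory subunits assemble and stabilise it.

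Depth was 11531942 to 15486513 counts per library. The members held 0.807% to 0.941% of the counts in the Control libraries and 0.672% to 0.928% in the CPI-613 libraries. All 8 markers of squamous epithelium were present, with summed levels of 7226 to 10792 CPM (counts scaled to a common library size after TMM normalisation) in Control and 4482 to 10997 CPM with CPI-613. Of the 6 fibroblast markers 3 were listed and summed to 31.0 to 41.6 CPM in all libraries. The leukocyte list summed to 40.3 to 79.6 CPM with CD3E not listed or at 0 and PTPRC at no more than 0.155 CPM, and the endothelial list to no more than 2.74 CPM. Whether reads were counted by strand is not given in the sources used here.

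Subunit genes were abundant in HN12. Their median level over the 6 libraries was 107 FPKM (counts divided by transcript length and library total), against 10.2 FPKM over all tested genes. Of the 85 members 46 exceeded 100 FPKM, a share of 54.1% against 6.96% of the tested genes, and 10 were below 10 FPKM. COX6A1, the ubiquitous form of a complex IV accessory subunit, was the highest, at 1289 ± 197 FPKM in Control and 1200 ± 179 FPKM with CPI-613 (SD, n = 3 each). The highest genes of the other complexes were ATP5F1B, the catalytic beta subunit of ATP synthase, at 534 FPKM, NDUFS6, an accessory subunit of complex I, at 530 FPKM, UQCRH, the hinge protein of complex III, at 431 FPKM, and SDHA, the flavoprotein of complex II, at 117 FPKM. The first 2 of these differ by less than the spread between their libraries.

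The order of levels, within a complex and between complexes, depends on the length by which the authors divided. Counts and FPKM imply 301 bases for COX6A1 and 282 bases for NDUFS6, against 1523 bases for ATP5F1B. Their mean Control levels were 361, 136 and 788 CPM in the same order, so that by CPM ATP5F1B stood above the other genes named here. The ratio of counts to FPKM implies 11426 bases for NDUFS1, the largest subunit of complex I, 8229 bases for UQCRB and 8120 bases for NDUFA9, and their levels of 5.96, 9.81 and 8.38 FPKM are low beside their counts. At the bottom of the range lay genes with restricted expression. COX8C, a testis form of a complex IV subunit, had 1 count in the 6 libraries together, and UQCRHL, a near copy of UQCRH, had 1.1 to 4.3 estimated counts per library, which cannot be told apart from reads of UQCRH. COX6B2, the testis form of COX6B, was present at 5.5 FPKM beside 319 FPKM for COX6B1. The read-through genes NDUFC2-KCTD14 and ATP5MF-PTCD1, at 4.80 and 0.187 FPKM, share exons with NDUFC2 and ATP5MF, so the split of reads between them is uncertain.

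**Figure D1:**
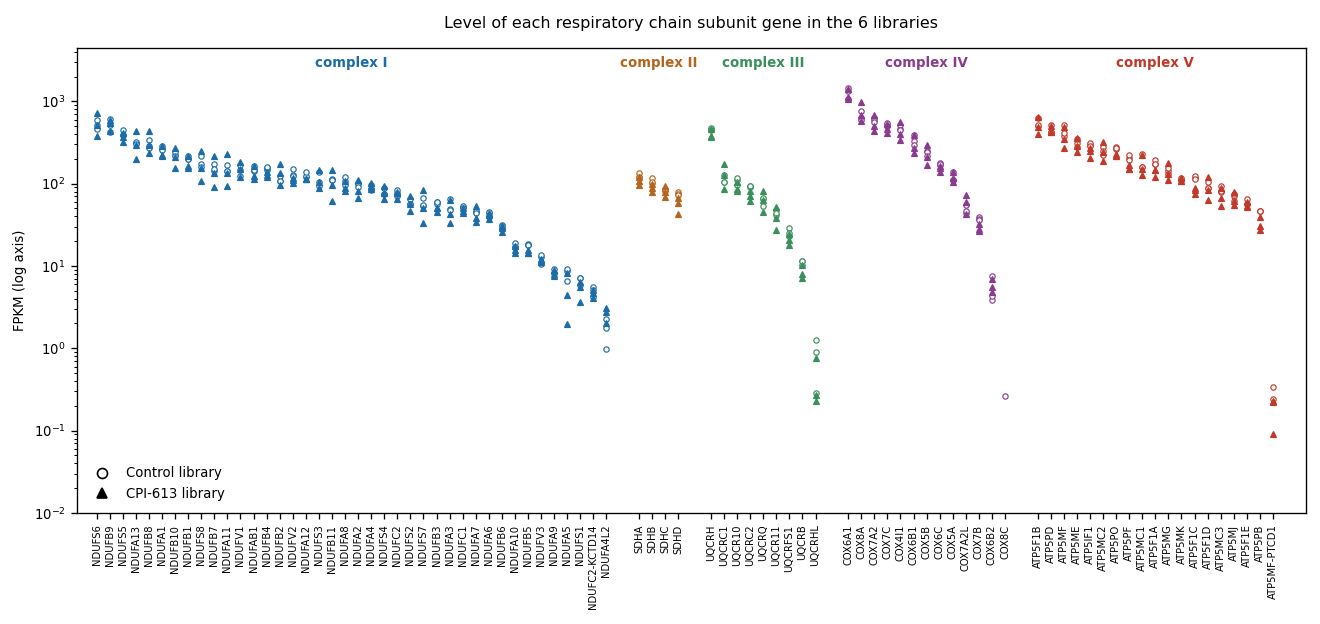
Level of each member in FPKM (vertical log axis), by complex and in falling order of its mean. Open circles are Control libraries and filled triangles CPI-613 libraries; libraries listed at 0 are not drawn. COX6A1 stands highest, and within most genes the Control and CPI-613 points overlap.

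The comparison of CPI-613 with Control asked whether transcripts of the respiratory chain differ after treatment of the cells with an agent directed at the enzymes that feed it. No subunit was called. Of the 85 members 83 passed the filter on low counts, all but UQCRHL and COX8C, and 0 of these 83 reached an adjusted p of 0.05 in edgeR's quasi-likelihood test with Benjamini-Hochberg adjustment over 12671 genes, in which 3.18% of all tested genes were called. DESeq2 and limma-voom also called 0 members. At an unadjusted p of 0.05, which 14.4% of tested genes passed, 1 member passed, NDUFA4L2.

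The fitted changes were small. Log2 fold changes ran from -0.62 for NDUFA5 to 0.95 for NDUFA4L2, and for 68 of the 83 members the whole 95% interval lay within 2-fold in either direction. The median over the members was 0.11, against 0.02 over all tested genes, and 62 of 83 lay above 0, against 6565 of 12671. The sign of the members' median turned with the scaling: with library size alone it was -0.11, and on log2(FPKM + 0.1) it was -0.15, where the medians over all genes were -0.17 and -0.20. Relative to all genes the members therefore lay higher by 0.09, 0.06 and 0.05 in the 3 scalings. It turned with single libraries as well, being 0.27 when CPI-613 replicate 1 was left out and -0.16 when CPI-613 replicate 3 was.

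The 5 complexes had similar medians. On the log2 scale the medians were 0.13 in complex I, -0.04 in complex II, 0.01 in complex III, 0.12 in complex IV and 0.10 in complex V, while the median standard error of a single member exceeded each of these. Fitted values lay above 0 for 34 of 40 tested genes in complex I, 1 of 4 in complex II, 4 of 8 in complex III, 11 of 12 in complex IV and 12 of 19 in complex V. With NDUFA4 and NDUFA4L2 counted in complex IV, where NDUFA4 is now placed, the medians were 0.12 for complex I and 0.16 for complex IV. Over all alternatives the median ran from -0.14 to 0.27 in complex I, -0.25 to 0.11 in complex II, -0.26 to 0.15 in complex III, -0.15 to 0.32 in complex IV and -0.21 to 0.31 in complex V, so that each changed sign. No difference between complexes was tested.

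**Figure D2:**
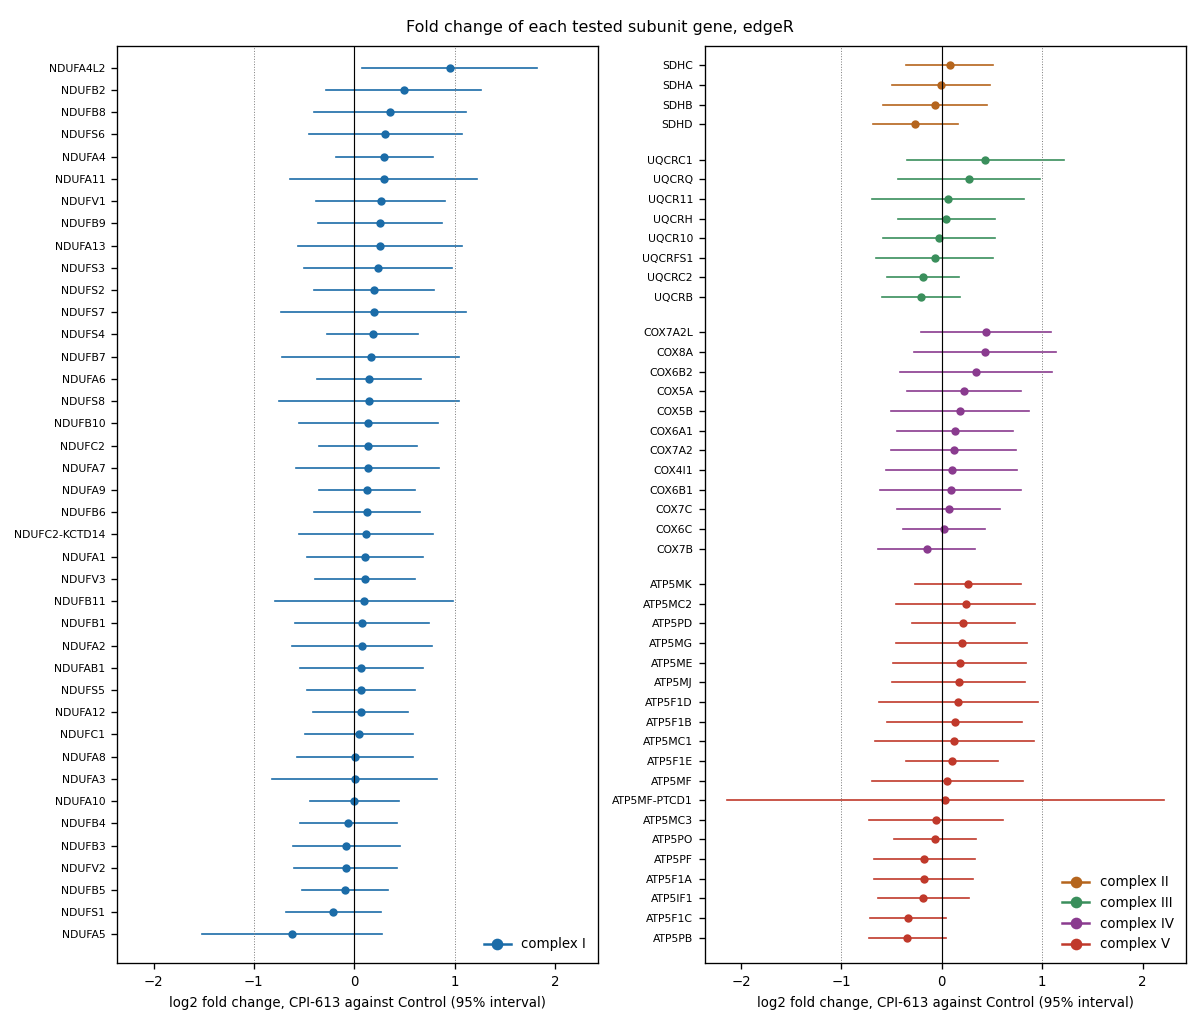
Fitted log2 fold change of CPI-613 against Control for the 83 tested members (points) with its 95% interval (lines), by complex; dotted lines mark 2-fold. All but NDUFA4L2 have intervals that include 0, and most lie within the dotted lines.

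Without overlap between the groups, 2 members were higher with CPI-613 (NDUFA4L2 and NDUFS4) and 5 were lower (SDHD, UQCRB, UQCRC2, ATP5F1C and ATP5PB). Over all tested genes 11.8% were higher and 9.18% lower without overlap. NDUFS4, UQCRC2 and ATP5F1C are described because of this separation, after their values were seen. All 5 lower members were among the 41 of lower transcript GC content. With the GC and length trend of each library removed, the log2 fold changes were 0.04 for SDHD, 0.45 for UQCRB and -0.13 for UQCRC2. They were -0.18 for ATP5F1C, -0.09 for ATP5PB, 0.75 for NDUFA4L2 and 0.40 for NDUFS4. The part of GC content in the separation was not tested.

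In complex I, NDUFA4L2 showed the largest fitted change. It is a paralog of NDUFA4 known as a gene induced in low oxygen. Its level was 1.41, 1.71 and 0.84 CPM in Control replicates 1 to 3 and 2.35, 2.0 and 3.33 CPM in CPI-613 replicates 1 to 3, from 11 to 43 counts per library. Each CPI-613 library exceeded each Control library, and the log2 fold change was 0.95 (SE 0.37), with an unadjusted p of 0.0364 and an adjusted p of 0.297 in edgeR's quasi-likelihood test; over the alternatives the adjusted p ran from 0.142 to 0.857.

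NDUFA4 itself, a subunit first purified with complex I and later found in complex IV, was far more abundant. It measured 139, 168 and 139 CPM in Control and 149, 179 and 221 CPM with CPI-613. The groups overlapped, with Control replicate 2 above CPI-613 replicate 1, and the log2 fold change was 0.30 (SE 0.21, edgeR adjusted p = 0.628).

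NDUFS4, an accessory subunit that is needed to complete complex I and is mutated in Leigh syndrome, measured 33.4, 30.2 and 29.4 CPM in Control and 36.6, 35.4 and 33.6 CPM with CPI-613. The lowest CPI-613 library lay just above the highest Control library, and the log2 fold change of 0.18 (SE 0.19) was smaller than its standard error, with an edgeR adjusted p of 0.771. NDUFA5, an accessory subunit of the matrix arm, had the lowest fitted value. It measured 26.8, 23.3 and 28.6 CPM in Control and 26.0, 16.0 and 9.22 CPM with CPI-613. The CPI-613 libraries spread widely among themselves, with 1 of them inside the range of Control, and the log2 fold change was -0.62 (SE 0.38, edgeR adjusted p = 0.578). NDUFA5 also has the lowest GC content of the members, 35.0% of its longest protein-coding transcript, and its value with the GC and length trend of each library removed was -0.11.

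The 7 core subunits of complex I, which carry the flavin and the iron-sulfur clusters, had a median of 0.19 on the log2 scale and ran from -0.21 for NDUFS1 to 0.27 for NDUFV1. NDUFV1, which binds NADH, measured 175, 216 and 154 CPM in Control and 150, 213 and 291 CPM with CPI-613, so that the lowest and the highest library were both treated ones. NDUFS1 went the other way between the same libraries, with 69.2 CPM in CPI-613 replicate 1 and 50.4 CPM in CPI-613 replicate 3. The 31 accessory subunits had a median of 0.11, with 27 above 0. NDUFS6, the most abundant of them by FPKM, measured 129, 162 and 118 CPM in Control and 101, 161 and 244 CPM with CPI-613, and its log2 fold change was 0.31 (SE 0.32, edgeR adjusted p = 0.771).

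Complex II is the smallest, and its 4 subunits stayed close to 0. SDHA, which binds the flavin and oxidises succinate, measured 279, 330 and 285 CPM in Control and 233, 296 and 359 CPM with CPI-613, with a log2 fold change of -0.01 (SE 0.21). SDHB, the iron-sulfur subunit, gave -0.07 (SE 0.22), and SDHC, a membrane anchor, 0.08 (SE 0.19). Their groups overlapped. SDHD, the other membrane anchor, measured 78.3, 81.2 and 75.2 CPM in Control and 70.3, 69.4 and 55.9 CPM with CPI-613. All CPI-613 libraries were below all Control libraries, with a log2 fold change of -0.26 (SE 0.18) and an edgeR adjusted p of 0.628. The 95% intervals of all 4 subunits lay within 2-fold, the widest bounds being -0.69 for SDHD and 0.51 for SDHC on the log2 scale.

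In complex III, the core proteins UQCRC1 and UQCRC2, which support the dimer and carry no redox group, differed in sign. UQCRC1 measured 130, 170 and 133 CPM in Control and 114, 186 and 286 CPM with CPI-613, with a log2 fold change of 0.43 (SE 0.33, edgeR adjusted p = 0.684). UQCRC2 measured 140, 151 and 145 CPM in Control and 131, 127 and 124 CPM with CPI-613, with a log2 fold change of -0.19 (SE 0.15, edgeR adjusted p = 0.705). UQCRC1 had the lowest and the highest library in the treated group, whereas for UQCRC2 the groups were close but separate.

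UQCRFS1, the Rieske iron-sulfur protein, gave -0.07 (SE 0.25). UQCRB, which lies near the ubiquinone site, measured 86.2, 82.5 and 87.7 CPM in Control and 81.4, 71.1 and 69.8 CPM with CPI-613, with a log2 fold change of -0.21 (SE 0.17, edgeR adjusted p = 0.702). Its groups were separate by a narrow gap. UQCRH, the hinge protein, gave 0.04 (SE 0.21).

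In complex IV the nuclear subunits surround a catalytic core that is made in mitochondria, and several exist as tissue forms. COX4I1, COX6A1 and COX7A2, the ubiquitous forms of 3 such pairs, gave log2 fold changes of 0.10 (SE 0.28), 0.13 (SE 0.25) and 0.12 (SE 0.26). COX6A1 measured 355, 429 and 298 CPM in Control and 303, 375 and 506 CPM with CPI-613. Of the 12 tested members 10 had this same order of the treated libraries, 83.3% against 45.0% of all tested genes. COX7A2L, which joins complexes III and IV in supercomplexes, had the highest fitted value. It measured 39.1, 49.7 and 39.1 CPM in Control and 40.6, 56.0 and 77.0 CPM with CPI-613, and the log2 fold change was 0.44 (SE 0.28, edgeR adjusted p = 0.585). Control replicate 2 lay within the range of the treated libraries. COX7B was lowest at -0.15 (SE 0.20).

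In ATP synthase, the F1 head and central stalk hold the catalytic sites. ATP5F1B measured 698, 939 and 727 CPM in Control and 590, 803 and 1189 CPM with CPI-613, with a log2 fold change of 0.13 (SE 0.29). The treated libraries held both the lowest and the highest value. ATP5F1C, the gamma subunit that turns within the head, measured 91.2, 103 and 91.2 CPM in Control and 72.8, 75.7 and 77.4 CPM with CPI-613. Here the groups were separate and the spread within each was small, and the log2 fold change was -0.34 (SE 0.16), with an edgeR adjusted p of 0.423 that ran from 0.0646 to 0.926 over the alternatives.

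Of the peripheral stalk, which keeps the head from turning, ATP5PB measured 100.4, 108 and 104 CPM in Control and 89.4, 78.0 and 78.8 CPM with CPI-613, with a log2 fold change of -0.34 (SE 0.16, edgeR adjusted p = 0.414). Its groups were separate as well. The other stalk subunits gave -0.18 for ATP5PF, -0.07 for ATP5PO and 0.21 for ATP5PD, all with overlapping groups. The genes ATP5MC1, ATP5MC2 and ATP5MC3 encode the same mature c-ring protein with different import sequences, and gave 0.12 (SE 0.34), 0.24 (SE 0.30) and -0.06 (SE 0.28). Their levels were 174, 249 and 76.9 FPKM in the same order, on lengths of 348, 404 and 2373 bases implied by counts and FPKM, so the low FPKM of ATP5MC3 rests on its long implied transcript. ATP5IF1, the protein that blocks ATP hydrolysis by the enzyme when the membrane potential falls, measured 103, 108 and 95.4 CPM in Control. With CPI-613 it measured 73.7, 90.6 and 106 CPM, with a log2 fold change of -0.18 (SE 0.19, edgeR adjusted p = 0.770). With the GC and length trend of each library removed, its log2 fold change was -0.37 (SE 0.097, edgeR adjusted p = 0.0511). This was the lowest adjusted p of the members in that fit, and just over the threshold. ATP5MK, a small membrane subunit, had the highest fitted value of complex V, 0.26 (SE 0.22).

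Summed over its subunits, complex I held 2361 to 2913 CPM in the Control libraries and 2081 to 3724 CPM in the CPI-613 libraries. Complex IV held 1416 to 1778 CPM and 1277 to 2306 CPM, and complex V 2386 to 3002 CPM and 2002 to 3446 CPM, in the same order of groups. In each of the 5 complexes the treated libraries spanned the Control range on this scale. On the FPKM scale the sums of complex II did not overlap, at 383 to 412 FPKM in Control and 310 to 354 FPKM with CPI-613, on a scale where the median of all genes was lower by 0.20 (log2).

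The shares of the complexes among all subunits changed little. By FPKM complex I held 35.0% to 35.1% of the subunit total in Control and 34.3% to 36.9% with CPI-613. Complex II held 2.52% to 2.78% and 2.09% to 2.68%, complex III 5.96% to 6.33% and 5.69% to 6.34%, complex IV 29.5% to 30.9% and 30.3% to 31.1%, and complex V 25.2% to 26.4% and 24.3% to 25.6%. The groups overlapped for each complex. By CPM, which does not divide by length, complex I held 31.5% to 32.0% in Control and 32.3% to 33.5% with CPI-613, and complex V 31.5% to 32.8% and 30.8% to 31.1%, so that these shares did not overlap on that scale.

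The members' common level varied more between libraries of a group than between the groups. In each gene the log2 CPM of a library was compared with the mean of that gene over the 6 libraries. The members' median of this deviation was -0.11, 0.14 and -0.11 in Control replicates 1 to 3 and -0.34, 0.01 and 0.45 in CPI-613 replicates 1 to 3, while over all tested genes it lay between -0.01 and 0.05. CPI-613 replicate 3 was the highest of the 6 libraries for 68 of 83 members, which is 81.9% against 37.5% of all tested genes. CPI-613 replicate 1 was the lowest for 60 members, 72.3% against 27.4%. Among the Control libraries replicate 2 was the highest for 74 members, 89.2% against 44.3% of all tested genes.

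All 5 complexes moved with the library in this way. In CPI-613 replicate 3 their medians ran from 0.28 for complex II to 0.50 for complex IV, and in CPI-613 replicate 1 from -0.38 for complex III to -0.28 for complex II. Further groups of abundant genes showed like values. The 78 tested mitochondrial ribosomal proteins had medians of -0.26 and 0.45 in CPI-613 replicates 1 and 3, and the 83 tested cytosolic ribosomal proteins -0.29 and 0.58. In edgeR's quasi-likelihood test 0 genes of each were called, 0 and 1 had an unadjusted p under 0.05, and the median log2 fold changes were 0.09 and 0.22.

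**Figure D3:**
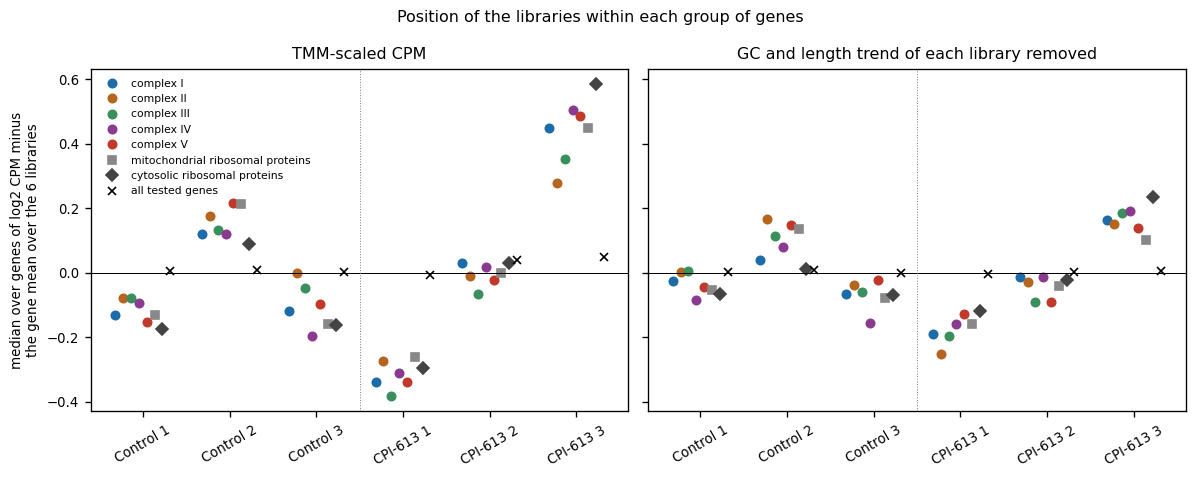
Median deviation of log2 CPM from the mean of each gene over the 6 libraries (vertical axis, log2), per library (horizontal axis) and group of genes (colours and shapes). On the left, with TMM scaling, all 5 complexes are lowest in CPI-613 replicate 1 and highest in CPI-613 replicate 3; on the right, with the GC and length trends removed, the same medians lie nearer to 0.

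GC content moved with these deviations. Across the 83 members the Spearman correlation between transcript GC content and the deviation was -0.43, 0.22 and -0.34 in Control replicates 1 to 3 and -0.53, 0.23 and 0.66 in CPI-613 replicates 1 to 3. Over 12605 genes it was -0.51, 0.29, -0.57, -0.66, 0.28 and 0.76 in the same order. These are descriptions across genes that share a library, not tests, and the part of GC content in the result was not tested. The median GC content was 48.2% in the members and 48.9% in all tested genes. After the trend of each library on GC content and length was removed, the medians were -0.19 in CPI-613 replicate 1 and 0.14 in replicate 3.

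The adjustment did not act alike on all members. Among the 42 members of higher GC content the difference between CPI-613 replicates 3 and 1 fell from 1.04 to 0.02 (log2), and among the 41 of lower GC content it went from 0.54 to 1.02. The longest annotated transcript, from which these values come, can differ from what was counted: for SDHC it has 13566 bases, while its counts and FPKM imply 1350 bases.

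With the trends removed, 0 members were called, where 11.5% of all tested genes were. The lowest edgeR adjusted p of a member was 0.0511, for ATP5IF1. The members' median log2 fold change was 0.01 against 0.00 over all genes. It was 0.27 among the 41 members of lower GC content and -0.11 among the 42 of higher GC content, against 0.06 and 0.13 without the adjustment. Only the combination of this adjustment with the omission of CPI-613 replicate 1, among all alternatives run, gave calls. NDUFA4 (log2 fold change 1.14), COX7A2L (1.08) and NDUFB2 (0.90) were then called higher, and ATP5PF (-0.50) lower, with edgeR adjusted p of 0.0413, 0.0493, 0.0374 and 0.0285. In that same fit 1363 of all 12706 tested genes were called higher and 1274 lower.

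**Figure D4:**
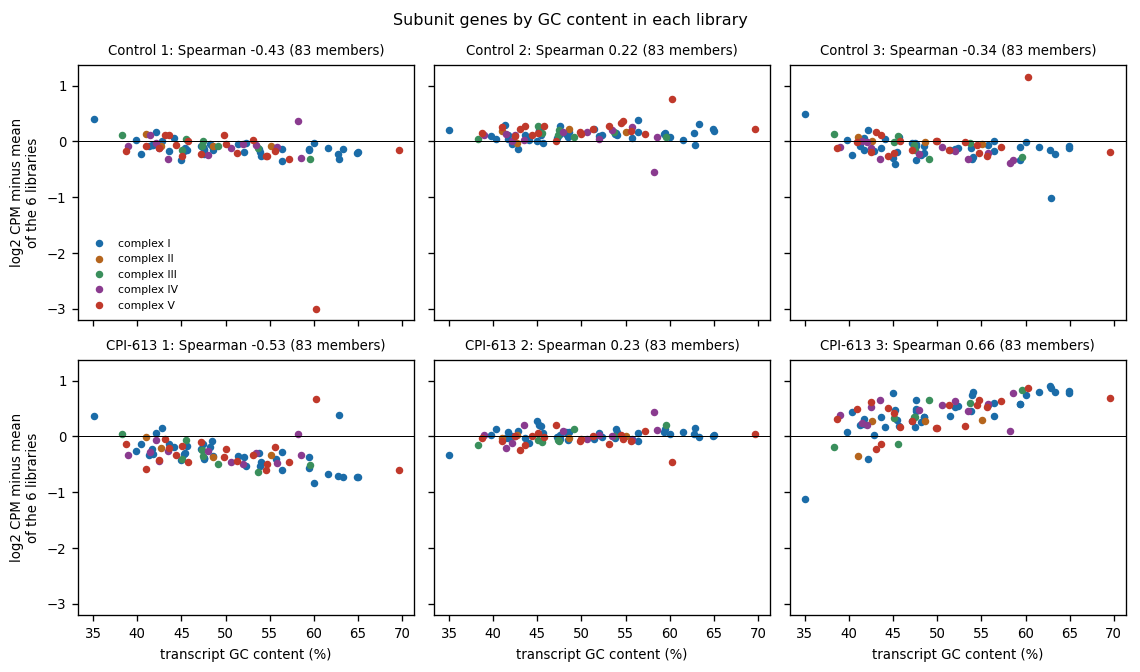
Deviation of each member's log2 CPM from its mean over the 6 libraries (vertical axis) against the GC content of its longest protein-coding transcript (horizontal axis, percent), a panel per library, coloured by complex. The relation runs downwards in Control replicates 1 and 3 and CPI-613 replicate 1 and upwards in CPI-613 replicate 3; the point at about -3 in Control replicate 1 is ATP5MF-PTCD1, which had no count there.

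The promoters of the members were read for strings that they share. Whether such strings relate to the movement of the members between libraries was not tested. RefSeq's promoter table (GRCh38.p14, 250 bases before the start of transcription and 50 after) held 71 of the 85 members and 13086 genes of the count table in all. For each complex the listed member with the highest level is shown here by the 120 bases before its start, 5′ to 3′ on the strand of the gene, with capitals marking matches on either strand to GCATGCGC (core of the NRF1 motif), CCGGAAG (ETS factors), AAGATGGC (YY1), the CCAAT box, GGGCGG (SP factors) or the TATA string TATAAA, and any string of 12 or more bases present 3 times.
NDUFS6, complex I, chr5:1801287-1801406, plus strand: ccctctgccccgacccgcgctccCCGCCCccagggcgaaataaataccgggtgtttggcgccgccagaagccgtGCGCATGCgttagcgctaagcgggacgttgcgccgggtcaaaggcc
SDHA, complex II, chr5:218200-218319, plus strand: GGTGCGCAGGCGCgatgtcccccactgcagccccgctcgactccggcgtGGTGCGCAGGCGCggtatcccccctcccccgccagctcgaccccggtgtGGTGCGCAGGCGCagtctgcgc
UQCRH, complex III, chr1:46303578-46303697, plus strand: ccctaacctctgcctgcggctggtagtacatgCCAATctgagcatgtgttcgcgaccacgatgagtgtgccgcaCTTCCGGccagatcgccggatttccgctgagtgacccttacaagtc
COX6A1, complex IV, chr12:120437993-120438112, plus strand: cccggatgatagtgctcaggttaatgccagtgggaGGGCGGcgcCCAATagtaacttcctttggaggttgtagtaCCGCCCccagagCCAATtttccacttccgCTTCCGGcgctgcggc
ATP5PD, complex V, chr17:75046970-75047089, minus strand: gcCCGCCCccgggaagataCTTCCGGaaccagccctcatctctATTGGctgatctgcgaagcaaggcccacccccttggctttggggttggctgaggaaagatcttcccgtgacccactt

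The stretch before NDUFS6 holds 1 match to GCATGCGC, which begins 46 bases before the start. The stretch before SDHA holds no exact match to these strings and 3 copies of a 13-base string, which begin 22, 71 and 120 bases before the start. Only exact matches were marked, so a variant or longer form of a motif, NRF1's included, would not be seen. The repeated string was not compared with such forms here. UQCRH, COX6A1 and ATP5PD each hold 1 match to CCGGAAG, which ETS factors such as GABP bind, beginning 46, 16 and 101 bases before the start.

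Over the whole 300 bases and both strands, 13 strings of letters were searched, of which the 9 of up to 8 letters are given; the other 4 were longer forms of the NRF1, YY1 and ZNF143 motifs and are not given. GCATGCGC lay in the promoters of 14 of 71 members, 19.7% against 5.49% of all genes with a promoter. Among ETS strings, which overlap each other, CCGGAAG was found in 29.6% against 19.2%, ACTTCCGG in 16.9% against 8.27% and CGGAAGTG in 9.86% against 7.92%. AAGATGGC was found in 16.9% against 5.43%.

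General promoter strings were not more frequent in the members. CCAAT was found in 33.8% against 42.9%, TGATTGGC, which contains it on the other strand, in 2.82% against 5.5%, GGGCGG in 63.4% against 71.4% and TATAAA in 8.45% against 10.3%. The median GC content of these promoters was 61.0% in the members and 63.7% in all genes. A match describes letters and does not show that a factor binds there.

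Transcripts of the same gene were compared after the gene totals had been seen, because the count table lists them separately. Of the members 44 genes had 2 or more tested transcripts, 131 in all. These counts include duplicate entries of the same transcript in NDUFS1, NDUFS3, UQCRC2 and ATP5IF1. For NDUFS3 and UQCRC2 the only 2 entries held 50% each in every library, so these genes could not be called. In edgeR's diffSpliceDGE 0 of these 131 were called, where 0.0193% of all transcripts tested were, and 1 had an unadjusted p under 0.05, the predicted SDHA transcript XM_017009685, which held 2.33% to 9.27% of SDHA counts in Control and at most 0.731% with CPI-613 (adjusted p = 0.910). Shares did not overlap for 11 member transcripts that were higher with CPI-613, the duplicate entry of NDUFS1 among them, and 10 that were lower. These were 21 in all, and 13.2% of all tested transcripts were without overlap between the groups. The 3 genes described next, ATP5F1C, NDUFC1 and ATP5MC1, were picked from these after their values were seen, with no rule of size.

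ATP5F1C has transcripts that end differently. They differ in exon 9 of 10, a 37-base exon at chr10:7806974-7807010 on the plus strand of GRCh38 (GENCODE 29) that NM_001001973 includes and NM_005174 skips, forms known as liver-type and heart-type. The exon changes the last coding bases, shown here from 20 bases before the end of exon 8 (chr10:7802758-7802854) to the stop codon, which is in capitals.
NM_001001973, exon 9 included: atctctggtgctgcagctctggatTAA
NM_005174, exon 9 skipped: atctctggtgctgcagctctgTAA
After the junction the first adds 4 coding bases and stops at 7806978, within exon 9, and the second adds 1 coding base and stops at 7807660, in the last exon.

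NM_005174 held 12.3%, 11.8% and 17.8% of ATP5F1C counts in Control replicates 1 to 3 and 28.1%, 38.2% and 26.8% in CPI-613 replicates 1 to 3. NM_001001973 held 84.5%, 84.8% and 79.1% in Control and 67.2%, 57.6% and 67.8% with CPI-613. The groups were separate for both transcripts, with means of 14.0% ± 3.32 and 31.1% ± 6.25 (SD, n = 3 each) for NM_005174. The relative usage of NM_005174 differed by 1.16 on the log2 scale, with an adjusted p of 1.00 in edgeR's diffSpliceDGE, so the difference is given as a description. The counts are the authors' estimates, which share reads between transcripts that overlap over most of their length.

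In NDUFC1, an accessory subunit of complex I, NM_001184987 held 36.7%, 31.2% and 46.4% of counts in Control and 61.3%, 48.5% and 56.7% with CPI-613, separate by a narrow gap (adjusted p = 1.00 in the same test). In ATP5MC1, NM_005175 held 11.2%, 9.82% and 12.7% of counts in Control and 20.7%, 16.0% and 17.6% with CPI-613, again without overlap and with an adjusted p of 1.00. NDUFS1 is listed with a duplicate entry for the same transcript, between which the split of reads is arbitrary, and its shares are not described.

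**Figure D5:**
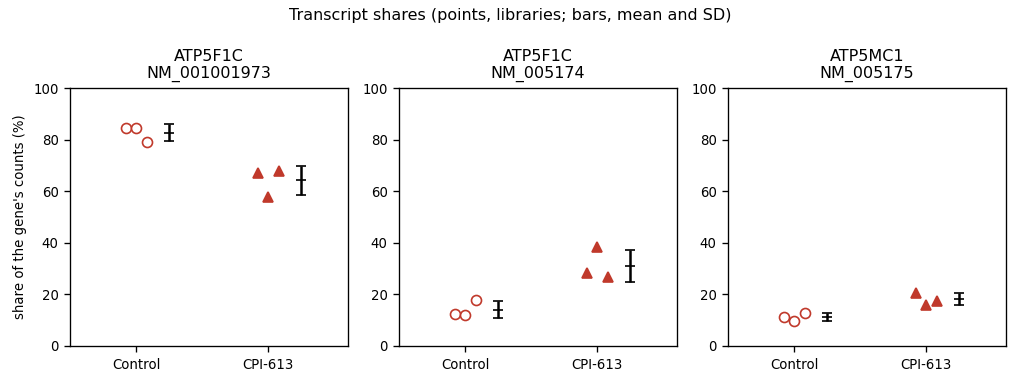
Share of a gene's counts held by 3 transcripts of complex V genes (vertical axis, percent) in Control (open circles) and CPI-613 (triangles) libraries, with mean and SD of 3 libraries as black bars. The NM_005174 form of ATP5F1C is at 11.8% to 17.8% in Control and 26.8% to 38.2% with CPI-613.

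Other genes of the pathway were read from 9 lists of 102 genes, of which 99 were tested. None was called in edgeR's quasi-likelihood test at an adjusted p of 0.05, and 2 had an unadjusted p under 0.05, both lower; DESeq2 called 1 lower. In edgeR's test 14.4% of all tested genes had an unadjusted p under 0.05. The median log2 fold change of the listed genes was 0.08, and 63 lay above 0. The groups did not overlap for 3 higher and 11 lower genes, where over all tested genes 11.8% were higher and 9.18% lower without overlap. The lists hold assembly factors of complexes I (17 genes, median 0.09), II (4, 0.19), III (6, 0.07), IV (27, 0.08) and V (7, 0.16), ubiquinone synthesis (13, 0.18), other dehydrogenases that reduce ubiquinone (6 of 8 tested, 0.02) and factors for mitochondrial transcription and DNA (17 of 18 tested, -0.08).

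The electron carriers around complex III differed in sign. CYCS, cytochrome c, measured 267, 290 and 251 CPM in Control and 251, 212 and 173 CPM with CPI-613, with a log2 fold change of -0.35 (SE 0.19, edgeR adjusted p = 0.522). CYC1, cytochrome c1, measured 185, 274 and 189 CPM in Control and 151, 233 and 374 CPM with CPI-613, with 0.23 (SE 0.35, edgeR adjusted p = 0.832). Both spread widely within the treated group. Of the genes with the highest CPM in each of the other lists, COA1 gave 0.02, SDHAF2 0.15, TTC19 0.13, ATPAF1 0.16, COQ9 0.19, ETFA 0.02 and ESRRA 0.30, and LRPPRC, which binds mitochondrial messenger RNA, gave -0.59 (SE 0.55) with 161, 68.3 and 30.4 CPM in the treated libraries.

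The 2 genes with an unadjusted p under 0.05 were PPARGC1B, a coactivator of mitochondrial gene expression, and PDSS1, which makes the side chain of ubiquinone. PPARGC1B measured 23.0, 24.1 and 18.9 CPM in Control and 11.6, 12.5 and 12.9 CPM with CPI-613, with a log2 fold change of -0.84 (SE 0.23) and an edgeR adjusted p of 0.122. With the GC and length trends removed it was called lower, at -0.91 with an adjusted p of 0.0137, as were YY1 (-0.42, adjusted p = 0.0379), a zinc finger factor, and GPD2 (-0.87, adjusted p = 0.0152), the glycerol-3-phosphate dehydrogenase of mitochondria. That fit called 11.5% of all tested genes. PDSS1 measured 14.6, 16.9 and 11.5 CPM in Control and 9.91, 9.69 and 7.36 CPM with CPI-613, with -0.67 (SE 0.27, edgeR adjusted p = 0.310). PPARGC1B and PDSS1 had groups without overlap. PPARGC1B, PDSS1, YY1 and GPD2 are named after their values were seen.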

How the data were processed

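RNA was sequenced from 3 Control and 3 CPI-613 samples of HN12 cells, grouped by title. Per the labels' protocols, total RNA went into NEBNext Ultra II libraries. The tools listed in the submitters' processing notes are STAR 2.5, HTSeq, CASAVA, DESeq2 and edgeR 3.16.5, with hg38 as the build and no roles stated. The first deposited table holds the authors' estimated counts per RefSeq transcript, mostly not whole numbers. The unit of the second is not named in the deposited table and was taken as FPKM, since over 1036 genes with a single transcript the worth of 1 read followed the inverse library total within 0.653%. In 27 transcripts a cell of CPI-613 replicate 1 holds a date; they were left out, which removed 3 genes and no member. Genes without a symbol (53) held 0.0163% of counts.

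Counts were summed per gene, rounded, filtered with filterByExpr (minimum count 10, total 15), normalised by TMM and tested by quasi-likelihood in edgeR 4.0.16 (R 4.3.3), group as covariate, Benjamini-Hochberg over all 12671 tested genes, threshold 0.05, both directions. The standard error is the size of the log2 fold change over the square root of F. GC content and length come from the longest protein-coding GENCODE 29 transcript. The members and all gene lists were chosen with earlier results of these data known. Named genes are, per complex, members called with or without GC adjustment, the highest and lowest fold change and the highest FPKM, the tissue-form pairs, ATP5IF1, complex II, CYC1 and CYCS, and per other list its called gene or the highest by CPM. PPARGC1B, PDSS1, YY1 and GPD2 lie outside this rule. Coordinates come from RefSeq (GRCh38.p14, the same build as hg38), by gene identifier, and from GENCODE 29 for exons. Scripts were tested on simulated counts that, unlike these data, carried no GC or length trend between libraries. Alternatives were other scalings, filters and tools (DESeq2 1.42.0, limma 3.58.1), FPKM, the replicate number as a block, GC and length offsets and omission of each library. Precision rests on 3 libraries per group.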

Additional observations from a re-analysis of the deposited data

How the results depend on the processing

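The count of 0 members called higher and 0 lower held under every other scaling, filter and tool, and under FPKM; leaving out 1 library at a time with the GC and length adjustment gave 0 to 3 higher and 0 to 1 lower. Of the genes of the pathway lists, 0 were called lower in the reported test, 1 with library size alone, 1 with DESeq2, 3 with GC and length adjusted, 2 with GC alone, 2 with transcripts weighted by counts (chosen after seeing the data), and 0 to 4 lower and 0 to 3 higher when 1 library was left out, alone or with the adjustment. The labels do not state whether replicate numbers pair the samples. The correlation of deviations was 0.46, -0.10 and -0.61 for numbers 1 to 3, and 0.68 between Control replicate 2 and CPI-613 replicate 3. Since the deviations also moved with GC content, these values cannot decide on pairing. With the replicate number as a block 109 genes were called higher and 82 lower in place of 246 and 157, no member was called and the members' median was 0.07; the block with GC and length adjusted called 1 pathway gene lower. Over all genes DESeq2 called 491 and 402, and GC and length adjusted 768 and 682. Without Control replicate 1 or 3, 0 genes were called, with 1064 and 1118 at an unadjusted p under 0.05. For 36 genes, those named by the rule with NDUFS4, UQCRC2 and ATP5F1C, 1008 alternative log2 fold changes were computed. NDUFB2, ATP5PF, PPARGC1B, YY1 and GPD2, whose calls are given above, are not among the 36. Of the 1008 values, 229 changed sign with neither value called, which is not counted here as a reversal. A move of over 1 standard error was seen in 217. Calls were made in 3, NDUFA4, COX7A2L and LRPPRC (-0.85), all without CPI-613 replicate 1 and with GC and length adjusted. The cause was not tested. With 3 libraries per group, the interval of 15 of 83 members reaches past 2-fold, so the change of these is not bounded within 2-fold.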
